A study of Rattus norvegicus with 6 samples.

Results

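A set of 8 genes of myelin and of the Schwann cell, the glial cell that ensheathes axons in peripheral nerves, were followed in Achilles tendons of newborn rats: Mbp, Prx, Pmp22, Cnp, Mag, Sox10, Ngfr and S100b. They were chosen by symbol, and all 8 were measured among 14217 genes that had a probe set of their own on an Affymetrix rat array. Tendons taken on post-natal day 7 were set against tendons taken on post-natal day 1, with 3 arrays at each age, and every array held the RNA of a pool of at least 2 animals. Both ages were dissected under a microscope and have no treatment named in the labels, which give neither strain nor sex. The labels call the replicates separate samples of pooled animals, and every p-value here rests on the variation from pool to pool.

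Myelin is the Schwann cell's membrane wound many times round an axon and pressed together by proteins such as Mbp and Pmp22. Its genes are switched on by Sox10, which is present throughout the lineage, together with Egr2 (Krox20), which appears as a cell commits to wrapping an axon. In rodent nerves this begins around birth and runs through the first post-natal weeks, while Ngfr, the low-affinity neurotrophin receptor of immature and non-myelinating Schwann cells, declines in cells that make myelin. Tendon itself holds few nerve fibres, most of them in the sheath around it. In a bulk sample such as a whole tendon, fewer Schwann cells and less RNA per Schwann cell cannot be told apart.

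On their brightest probe sets, the 5 myelin protein genes were all high in day 7 replicates 1 and 3, while in day 7 replicate 2 they lay in or close to the day 1 range. Their changes with age on these probe sets did not pass the test, and their day 7 pools differed widely. The day 7 arrays stood wholly above the day 1 arrays for 4 of the 8 genes and wholly below for 1, against 14.0% and 19.1% of all genes. Of the 8 genes, S100b rose and Ngfr fell at an adjusted p under 0.05 (limma, adjusted over all 31042 probe sets tested). Over all genes 1.93% were called higher and 3.15% lower, and 1 call in each direction among 8 genes is too few to set against that background. At an unadjusted p under 0.05, 6 of the 8 were higher and 1 lower, against 10.6% higher and 17.0% lower over all genes. The median log2 change of the 8 was 1.05, against -0.01 over all genes.

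Because Sox10 binds short sites of the type ACAAAG, the promoters of the 8 genes were searched for these letters. RefSeq promoters on the rat assembly GRCr8, from 250 bases before to 50 bases after a transcript's start, were matched for 6 of the 8 (Mbp, Prx, Pmp22, Cnp, Mag and S100b), but not for Sox10 and Ngfr. The letters ACAAAG, or CTTTGT on the other strand, stood in 2 of the 6, those of Cnp and Mag, and in 18.8% of all 33469 promoters of this length. The Egr-type letters GTGGGCG, on either strand, stood in 0 of the 6 and in 7.12% of all promoters. The pair with a match is shown 5′ to 3′ on each gene's own strand, with the match in capitals. Cnp lies on the plus strand (chr10:86011254-86011553) and its match begins at position -203 relative to the start. Mag lies on the minus strand (chr1:95290995-95291294) and its match begins at position -152. A match describes the letters and does not show that a factor binds there.
Cnp: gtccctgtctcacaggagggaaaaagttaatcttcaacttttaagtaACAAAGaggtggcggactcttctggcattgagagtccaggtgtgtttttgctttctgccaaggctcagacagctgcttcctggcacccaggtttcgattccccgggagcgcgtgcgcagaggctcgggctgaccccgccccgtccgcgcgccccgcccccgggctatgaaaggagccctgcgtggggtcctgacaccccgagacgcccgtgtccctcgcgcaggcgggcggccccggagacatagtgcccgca
Mag: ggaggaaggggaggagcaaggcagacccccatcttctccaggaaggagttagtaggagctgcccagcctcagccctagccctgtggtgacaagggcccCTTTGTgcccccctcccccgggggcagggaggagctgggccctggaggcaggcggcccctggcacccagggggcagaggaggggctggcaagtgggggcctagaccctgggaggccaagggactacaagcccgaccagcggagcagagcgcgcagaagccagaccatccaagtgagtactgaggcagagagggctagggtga

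Mbp encodes myelin basic protein, which holds the inner faces of the wrapped membrane together. Its intensity was 1889.8, 81.1 and 3422 in day 7 replicates 1, 2 and 3, against 41.1, 143 and 96.4 in day 1 replicates 1, 2 and 3. The groups overlapped, since day 7 replicate 2 lay inside the day 1 range, and replicates 1 and 3 of day 7 lay 23.3-fold and 42.2-fold above replicate 2 of the same age. The log2 change was 3.27 (SE 1.25; limma adjusted p = 0.178). A second probe set of Mbp, with 123, 13.5 and 211 in the day 7 replicates against 11.4, 15.7 and 14.9 in the day 1 replicates, showed the same arrays high. The third did not: it read 73.3, 54.3 and 80.6 on day 7 against 28.1, 30.0 and 28.1 on day 1. Replicate 2 was again the lowest of day 7, but the groups did not overlap, and the log2 change of 1.22 passed the test (SE 0.15; limma adjusted p = 0.0141). Which Mbp transcripts each probe set detects is not given in the sources used here.

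Prx encodes periaxin, a scaffold protein of the outer Schwann cell membrane. Its intensity was 363, 95.2 and 676 in the day 7 replicates, against 80.4, 88.7 and 89.2 in the day 1 replicates. All day 7 arrays lay above all day 1 arrays, replicate 2 only just (1.11 times the day 1 mean). Prx thus had a log2 change of 1.72 (SE 0.60; limma adjusted p = 0.147).

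Pmp22 encodes a tetraspan protein of compact myelin, and fibroblasts and other cells also express it. Its intensity was 3239.5, 1855 and 4368 in the day 7 replicates, against 1599, 1707 and 1677 in the day 1 replicates, without overlap. The day 7 arrays thus kept the order seen for Mbp and Prx, replicate 2 lowest and replicate 3 highest, on a narrower scale. Over the 6 arrays the log2 change was 0.84 (SE 0.27; limma adjusted p = 0.129), and the other probe set of the gene gave 0.97 (SE 0.30; limma adjusted p = 0.115).

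Cnp encodes a phosphodiesterase of uncompacted myelin that many other cells express at a low level. Its intensity was 462, 331 and 581 in the day 7 replicates, against 306, 261 and 293 in the day 1 replicates. Every day 7 array lay above every day 1 array. The log2 change was 0.64 (SE 0.20; limma adjusted p = 0.116), and the dimmer probe set gave 0.63 (SE 0.18; limma adjusted p = 0.0932). On that dimmer probe set day 7 replicate 1, at 66.7, lay above replicate 3, at 55.3, and replicate 2, at 40.1, was again the lowest of its age.

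Mag encodes the myelin-associated glycoprotein, an adhesion molecule on the membrane layer that faces the axon. Its intensity was 21.2, 6.12 and 35.9 in the day 7 replicates, against 6.65, 6.40 and 6.42 in the day 1 replicates. Except in day 7 replicates 1 and 3, these readings stood close to the bacterial trp control, a transcript foreign to rat RNA whose probe sets read at most 4.76. Its log2 change was 1.27 (SE 0.51; limma adjusted p = 0.197), and 0.64 with a pseudocount of 16.

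**Figure D1:**
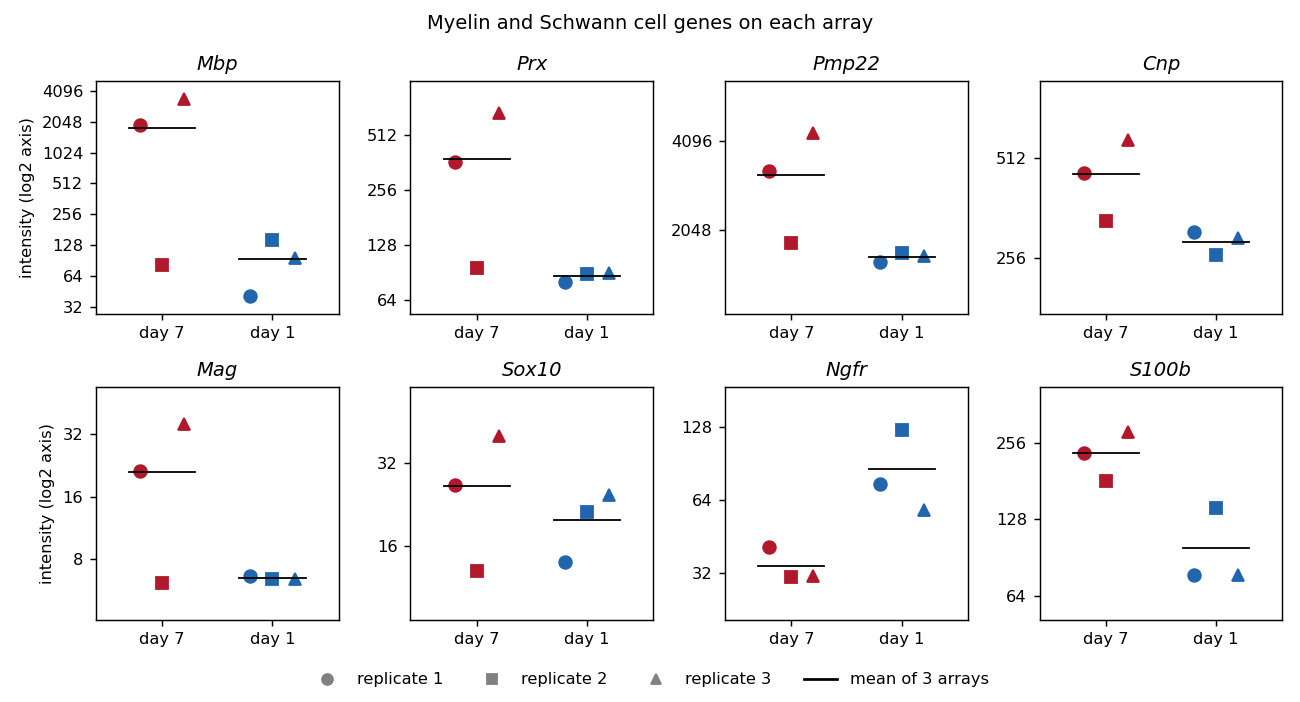
Intensity of each of the 8 genes (log2 axis) on the 3 day 7 arrays (red, left) and the 3 day 1 arrays (blue, right), with circles, squares and triangles for replicates 1, 2 and 3 and a line at the mean of the 3 arrays. In day 7, the square of Mbp stands at 81.1, far below the circle at 1889.8 and the triangle at 3422, and Ngfr alone has all its day 7 arrays below day 1.

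Sox10 encodes the transcription factor of the whole Schwann lineage, which melanocytes also use. Its intensity was 26.5, 13.1 and 39.8 in the day 7 replicates, against 14.0, 21.3 and 24.5 in the day 1 replicates. Replicate 2 of day 7 was the lowest of all 6 arrays and replicate 3 the highest, so the groups overlapped. The log2 change was 0.30 (SE 0.37; limma adjusted p = 0.682), and without day 7 replicate 3 it was -0.05.

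Ngfr encodes the p75 neurotrophin receptor, which binds nerve growth factor and related ligands and is also found on pericytes and mesenchymal precursors. Its intensity was 41.2, 30.8 and 31.0 in the day 7 replicates, against 74.3, 125 and 58.4 in the day 1 replicates. The groups did not overlap, and the 3 day 7 arrays lay close together, unlike those of the myelin protein genes. Ngfr fell by 1.24 on the log2 scale, or 2.36-fold (SE 0.26; limma adjusted p = 0.0483). The call was kept in 1 of 6 fits that left out an array, the one without day 1 replicate 2, and was lost after quantile normalization and with a pseudocount of 16 (limma adjusted p from 0.0472 to 0.128 over the 6 fits). Of all 14217 genes, 448 were called lower with all arrays. Without day 1 replicate 2 it was 382, without day 7 replicate 2 377 and in the other fits without 1 array 0 to 107.

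S100b encodes a calcium-binding protein used as a marker of Schwann cells, and cartilage and fat cells express it too. Its intensity was 235, 181 and 284 in the day 7 replicates, against 77.0, 141 and 77.3 in the day 1 replicates. The groups did not overlap, and day 7 replicate 2 was again the lowest of its age. S100b rose 2.41-fold (log2 change 1.27, SE 0.26; limma adjusted p = 0.0443). The call was kept in the 2 of 6 fits that left out either array numbered 2, and was lost with a pseudocount of 16 (limma adjusted p from 0.0259 to 0.155 over the 6 fits). Of all 14217 genes, those 2 fits called 200 and 271 higher, and the others without 1 array 4 to 87. The summed intensity of 8 cartilage markers was 5461, 3672 and 2916 in the day 7 replicates against 1588, 2885 and 1047 in the day 1 replicates. The sum of 10 adipocyte markers was 4729, 3054 and 6391 against 1594.5, 1761 and 1801. Log2 changes were positive for all 8 cartilage genes, 1 of them called, and for all 10 adipocyte genes, 8 of them called. Over all 14217 genes 6824 had a positive change and 1.93% were called higher. Their part in the S100b result was not tested.

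Without day 7 replicate 2, limma called 6 of the 8 genes higher (Mbp, Prx, Pmp22, Cnp, Mag and S100b) and 0 lower, with 7 higher and 1 lower at an unadjusted p under 0.05. Over all genes that fit called 1.41% higher and 2.65% lower, with 1438 and 2468 of 14217 at an unadjusted p under 0.05. The log2 change was then 4.92 for Mbp (SE 0.50; limma adjusted p = 0.0137), 2.51 for Prx (SE 0.25; limma adjusted p = 0.0135) and 1.93 for Mag (SE 0.21; limma adjusted p = 0.0167). The estimate for Mag is limited by its day 1 readings, which stood close to the trp control. Pmp22 stood at 1.18 and Cnp at 0.85. The array left out was the lowest of its age for these genes, so larger estimates follow from leaving it out. So do the smaller standard errors of the 5 myelin protein genes, and the calls on their brightest probe sets depend on leaving out that array. The third probe set of Mbp was called with all 6 arrays (limma adjusted p = 0.0141). Without any 1 of the other 5 arrays, none of the 5 myelin protein genes was called on its brightest probe set (limma; 0 or 1 of the 8 genes higher, with 2 to 5 at an unadjusted p under 0.05). Those fits called 4 to 271 of all 14217 genes higher, with 1127 to 1528 at an unadjusted p under 0.05. Ngfr without day 7 replicate 2 had a log2 change of -1.17 (limma adjusted p = 0.0922).

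**Figure D2:**
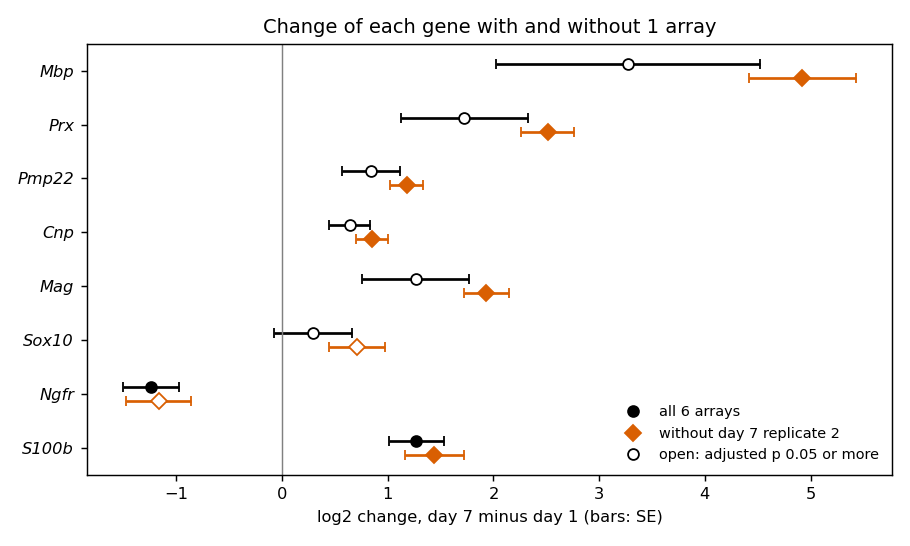
Log2 change of each gene, day 7 minus day 1, with its moderated standard error, from all 6 arrays (black circles) and without day 7 replicate 2 (orange diamonds). Filled symbols passed an adjusted p under 0.05: S100b and Ngfr with all arrays, and Mbp, Prx, Pmp22, Cnp, Mag and S100b without that array.

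The spread among the day 7 pools was measured for every gene as the range of its log2(value + 1) over the 3 arrays. Mbp had the widest range of all 14217 genes, 5.38, against a median of 0.285. Prx, at 2.82, ranked 15th, and Mag had a range of at least 2.37. A range at least as wide as that of Sox10 (1.53) occurred in 0.605% of all genes, as that of Pmp22 (1.23) in 1.20% and as that of Cnp (0.810) in 4.83%. S100b (9.66%) and Ngfr (29.2%) were nearer the middle of the distribution. The range of Mag depends on day 7 replicate 2, which lay near the negative control, and is a lower bound. Among the day 1 pools, 91.1% of all genes varied at least as much as Pmp22, 81.2% as Prx and 63.7% as Cnp. Wider day 1 ranges were those of Mbp (1.77, equalled or passed by 0.612% of genes), Ngfr (1.08; 2.34%), S100b (0.869; 4.85%) and Sox10 (0.761; 7.38%). Mag lay near the negative control on all day 1 arrays, so its day 1 range is not read.

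**Figure D3:**
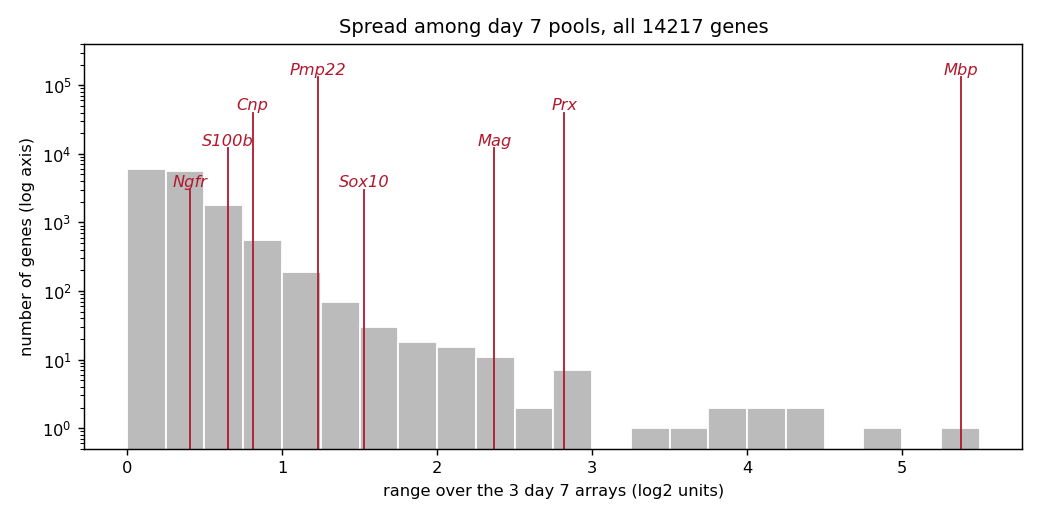
Number of genes (log axis) by the range of log2(value + 1) over the 3 day 7 arrays, with a red line at each of the 8 genes. Mbp, read from its brightest probe set, stands alone at 5.38, Prx at 2.82 and Mag at 2.37 (a lower bound) lie in the thin tail, and Ngfr lies in the body of the distribution.

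Of the 8 genes, 7 had the same order among the day 7 arrays (replicate 2 lowest, then replicate 1, then replicate 3), an order found in 15.1% of all genes. Ngfr was the exception. Among the 25 genes with the widest day 7 range were Mal, Pmp2, Fa2h and Ugt8, which belong to a list of other myelin structure genes. The same 25 also held genes of hair and epidermis that were highest in day 7 replicate 1, such as Krt71 (426, 20.1 and 37.2 in the day 7 replicates, against 452, 22.0 and 16.2 in the day 1 replicates). Ahsp, a haemoglobin chaperone of red cell precursors, was highest in day 7 replicate 2 (33.5, 233 and 176, against 123, 61.2 and 179.6). These genes outside the nerve lists were picked after their values were seen, as examples of another order among the day 7 arrays. The tissue content of the pools was not measured.

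Of 8 other measured genes of myelin structure, none was called in either direction (limma; at an unadjusted p under 0.05, 5 were higher and 1 lower), and their median log2 change was 0.86. For this list and those below, 1.93% of all genes were called higher and 3.15% lower. At an unadjusted p under 0.05 the shares of all genes were 10.6% and 17.0%. Mal, a membrane protein of compact myelin, read 164, 22.5 and 277 in the day 7 replicates, against 11.6, 24.3 and 25.4 in the day 1 replicates. Ugt8 and Fa2h, enzymes that make the galactolipids of myelin, gave 18.7, 4.76 and 30.8 against 5.27, 4.47 and 6.02 for Ugt8, and 39.2, 16.2 and 98.1 against 13.5, 16.3 and 17.1 for Fa2h. The myelin lipid carrier Pmp2 read 57.4, 15.1 and 117 in the day 7 replicates, against 19.5, 29.0 and 27.2 in the day 1 replicates. In all 4, replicates 1 and 3 of day 7 were above every day 1 array and replicate 2 was not, the order seen for Mbp. Gal3st1, which adds the sulphate of sulphatide, had a log2 change of 0.51 (limma adjusted p = 0.167) with its groups apart, and the widely expressed tetraspanin Cd9 one of 0.82 (limma adjusted p = 0.0585).

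Among 10 genes of the specialised contacts that Schwann cells build, Itgb4 alone was called. It encodes the laminin-binding integrin beta-4 chain of Schwann cells, perineurium and epithelia. Its intensity was 83.3, 45.6 and 70.9 in the day 7 replicates, against 19.1, 21.5 and 18.0 in the day 1 replicates, with no overlap (log2 change 1.68, SE 0.21; limma adjusted p = 0.0141). The call was lost without day 7 replicate 1 or day 1 replicate 1 (limma adjusted p up to 0.0779). In that order, those fits called 4 and 26 of all 14217 genes higher. Cldn19, a tight junction protein of the Schwann cell membrane, gave 39.4, 15.0 and 81.2 on day 7 and 9.95, 17.2 and 14.8 on day 1, again with replicate 2 of day 7 in the day 1 range. Drp2, a partner of periaxin, gave 29.8, 16.3 and 26.9 on day 7 and 13.9, 17.0 and 14.2 on day 1. Gjb1, the connexin of Schwann cell gap junctions, read 10.8, 12.8 and 12.2 in the day 7 replicates, against 9.32, 10.2 and 8.53 in the day 1 replicates, without overlap (log2 change 0.32; limma adjusted p = 0.166). Dag1 and Cadm4, an adhesion receptor and an adhesion molecule of the Schwann cell surface, had log2 changes of -0.19 and 0.14.

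The day 7 order of Mbp was found in 6 of the 8 myelin structure genes, 2 of the 10 contact genes, 4 of 11 transcription factors of the lineage and 3 of 11 early Schwann genes, against 15.1% of all genes, and differences between these shares were not tested. None of the 11 transcription factors was called (limma; at an unadjusted p under 0.05, 2 were higher and 1 lower), and the median log2 change was -0.03. Egr2, given here after its values were seen, read 76.4, 51.8 and 135 in the day 7 replicates, against 66.6, 129 and 85.1 in the day 1 replicates. Its day 7 arrays stood in the order of Mbp, and day 1 replicate 2 was nearly as high as day 7 replicate 3. Id2, an inhibitor of helix-loop-helix factors, and Nab1, a partner of Egr proteins, had positive log2 changes of 0.42 and 0.33 with their groups apart, and Jun, an opponent of myelination, one of -0.38 with its groups apart (limma adjusted p = 0.167, 0.161 and 0.125). Nfatc4, Foxd3 and Tfap2a had log2 changes of 0.38, 0.31 and -0.45, each with overlapping groups.

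Of 11 genes of early and non-myelinating Schwann cells, 1 fell and none rose (limma; at an unadjusted p under 0.05, 1 lower and 0 higher), with a median log2 change of -0.02. The one that fell was Erbb2, the co-receptor through which neuregulin signals, which other tissues also express: its intensity was 51.2, 54.5 and 50.4 in the day 7 replicates, against 118, 104 and 127 in the day 1 replicates. The groups were far apart compared with their spread (log2 change -1.14, SE 0.11; limma adjusted p = 0.0111), and the call was lost only without day 7 replicate 1 among the 6 fits without 1 array (limma adjusted p = 0.0679). That fit called 0 of all 14217 genes lower. Its partner Erbb3, given after its values were seen, stayed between 8.89 and 10.6 on all arrays. These readings lay below the array medians (20.5 to 21.1) and so near the negative control that a shift could hardly be seen. Dhh, the Schwann cell signal to the perineurium, had 26.8, 22.5 and 47.0 on day 7 and 11.3, 23.4 and 24.0 on day 1. Gfap, Gfra3, Cdh2 and Ncam1 had log2 changes of 0.31, 0.17, -0.23 and -0.29, with overlapping groups.

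**Figure D4:**
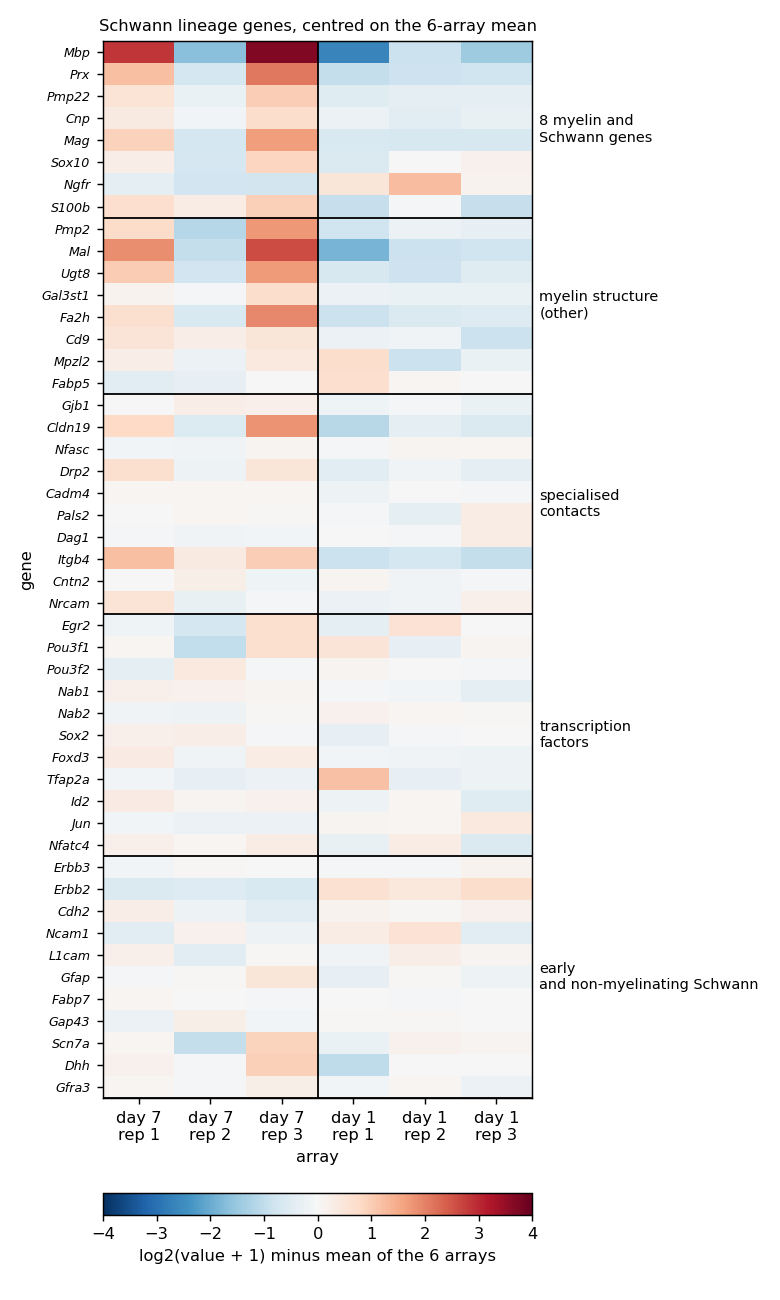
Log2(value + 1) of the 8 genes and of 4 lists of Schwann lineage genes on each array, minus each gene's mean of the 6 arrays (red above, blue below, scale from -4 to 4), with day 7 on the left. Mbp, Prx, Mag, Pmp2, Mal, Ugt8, Fa2h and Cldn19 share red cells in day 7 replicates 1 and 3 and a blue cell in day 7 replicate 2, while the early Schwann genes are mostly pale and Erbb2 is blue in all day 7 arrays.

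Among 9 genes of nerve ligands and receptors, Adgrg6 alone was called. It encodes the adhesion receptor that Schwann cells need to start myelinating, and other tissues express it. Its intensity was 15.9, 17.2 and 15.5 in the day 7 replicates, against 32.6, 27.1 and 43.8 in the day 1 replicates (log2 change -1.02, SE 0.17; limma adjusted p = 0.0279). The call was kept in 2 of 6 fits without 1 array, those without either array numbered 2, and was lost with a pseudocount of 16 (log2 change -0.64) and with the mean of the gene's probe sets. The other fits without 1 array called 0 to 107 of all 14217 genes lower. Ntrk2 and Cntf, a neurotrophin receptor and a Schwann cell cytokine, had log2 changes of 0.91 and 0.34 (limma adjusted p = 0.163 and 0.243).

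Most axonal and neuronal genes lay near the negative control, where a shift could hardly be seen. None of 12 was called (limma; at an unadjusted p under 0.05, 0 were higher and 2 lower), and the median log2 change was -0.05. The summed intensity of the 12 was 188, 189 and 204 in the day 7 replicates, against 222, 241 and 164 in the day 1 replicates. Prph and Uchl1, the brightest of them, had log2 changes of 0.17 and -0.51, and Uchl1 was lower on every day 7 array than on any day 1 array (32.2, 36.4 and 32.1 on day 7, against 52.9, 55.5 and 38.3 on day 1; limma adjusted p = 0.109). The sum over the 8 myelin and Schwann genes over the same arrays was 6278, 2593 and 9437 on day 7 and 2199, 2494 and 2322 on day 1. Mbp and Pmp22, the latter also expressed by fibroblasts, made up most of it on every array. The 2 sums thus do not compare myelin and axon genes as whole sets. Neuronal cell bodies, which hold most neuronal messenger RNA, lie outside the tendon.

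Genes that mark other cells with myelin or Sox10 were mostly dim. Of 7 oligodendrocyte genes, Olig1, Olig2, Opalin, Mobp and Nkx2-2 read at most 8.61 on any array, and Mog was between 11.7 and 19.3. The summed intensity of the 7 was 139, 121 and 158 on day 7 and 83.1, 86.3 and 66.8 on day 1. The brightest of them was Cldn11, a claudin also made outside the nervous system, which was the one gene of the list called (101, 80.7 and 104 on day 7, against 41.9, 48.0 and 23.6 on day 1; limma adjusted p = 0.0335, kept without replicate 2 of either age and without day 1 replicate 3, and up to 0.134 in the other fits without 1 array). Of 6 melanocyte genes none was called (limma; also none at an unadjusted p under 0.05), and their sum was 136, 111 and 122 on day 7 and 131, 171 and 110 on day 1. Tyr and Tyrp1 did not exceed 8.29, but Pmel and Mitf, the brightest of the list, were not near the negative control. Pmel read 46.4, 41.9 and 40.1 on day 7 against 60.4, 93.3 and 44.3 on day 1. Mitf read 54.0, 34.8 and 47.0 on day 7 against 36.1, 44.4 and 35.8 on day 1. Of 6 perineurial genes, Itgb4 was the one called. Slc2a1, a glucose transporter of perineurium and other barriers, had a log2 change of 0.42, and the junction protein Tjp1 one of -5.69e-04.

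Cholesterol is a main lipid of myelin. Of 10 genes of its synthesis and control, Insig1, which restrains the pathway and is prominent in fat cells, was called higher (451, 330 and 428 in the day 7 replicates, against 245, 158 and 220 in the day 1 replicates; limma adjusted p = 0.0415, kept without day 7 replicate 2 and up to 0.152 without another array). The median log2 change of the 10 was -0.06. Fdps and Cyp51, the brightest enzymes of the list, had log2 changes of -0.34 and -0.05.

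The order of the day 7 arrays was not limited to myelin. Of 10 adipocyte genes 8 were called higher (1 without day 7 replicate 1, 4 without day 1 replicate 1 and 6 to 10 without any other array), and their sum over the day 7 arrays, given beside S100b, was also lowest in replicate 2 and highest in replicate 3. Of 12 skeletal muscle genes 5 were called lower and none higher (limma; at an unadjusted p under 0.05, 11 lower and 0 higher; 9 called lower without day 7 replicate 2, 2 without day 1 replicate 2 and 0 without any other array), and their sum was 36556, 46171 and 30877 on day 7 against 59756, 52805 and 64621 on day 1. The muscle sum thus ran the opposite way to Mbp among the day 7 arrays. Over all genes 1.93% were called higher and 3.15% lower, and 17.0% were lower at an unadjusted p under 0.05. Of all 14217 genes, 4 were called higher without day 7 replicate 1, 26 without day 1 replicate 1 and 61 to 271 without another array. Lower calls numbered 377 without day 7 replicate 2, 382 without day 1 replicate 2 and 0 to 107 without another array. The sum of 8 tendon genes was 62216, 52321 and 47723 on day 7 against 36962, 44239 and 26220 on day 1. The ratio of the 3′ to the 5′ control probe set of Gapdh, a sign of RNA integrity and of labelling, was 2.09, 1.73 and 2.00 in the day 7 replicates against 1.74, 1.80 and 1.75 in the day 1 replicates, and that of beta-actin 2.40, 2.17 and 3.35 against 2.44, 2.85 and 1.80. Both ratios were lowest for their age in day 7 replicate 2. The part of fat, muscle and RNA quality in the myelin values was not tested.

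**Figure D5:**
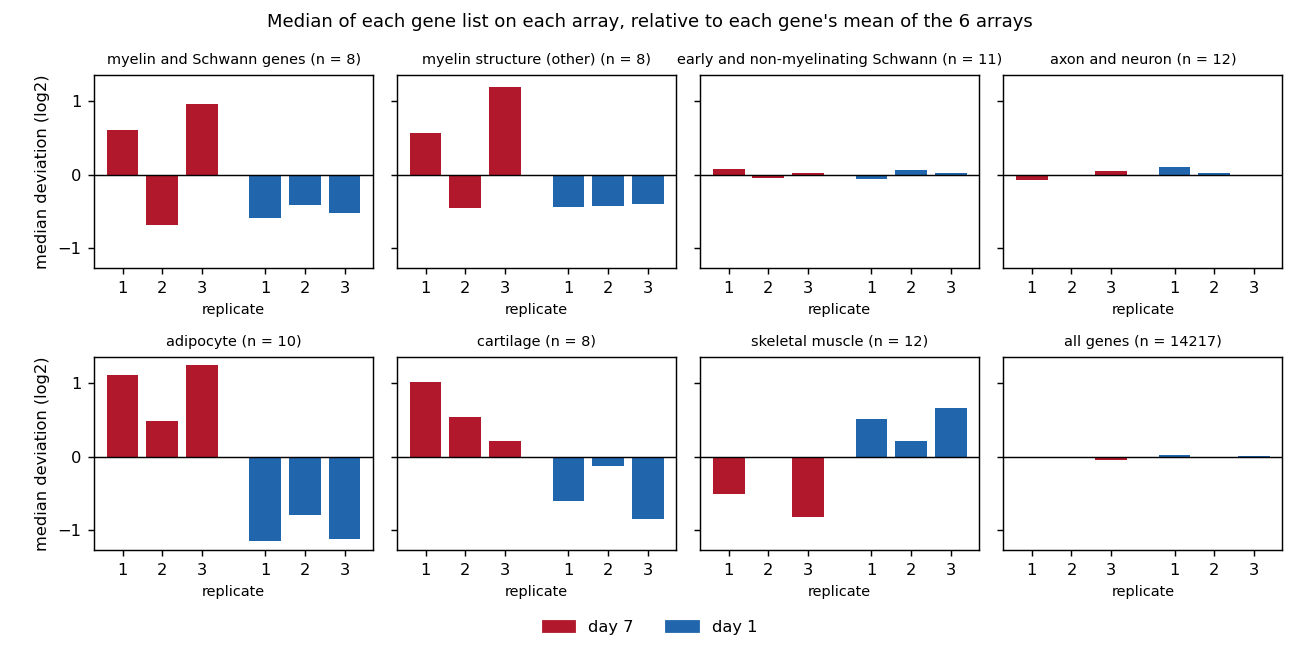
Median over each gene list of log2(value + 1) minus each gene's mean of the 6 arrays, for day 7 replicates 1 to 3 (red, left) and day 1 replicates 1 to 3 (blue, right). The myelin and Schwann genes stand at 0.607, -0.695 and 0.959 on day 7, and replicate 2 of day 7 is below 0 in the 2 myelin lists but above 0 in the adipocyte and cartilage lists.

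The genes whose profile over the 6 arrays was nearest to that of Mbp were found by the root mean square difference of log2 values centred on each gene's own mean. The nearest outside the 8 was Mal (0.788 log2 units), followed by Apod, the lipid carrier apolipoprotein D of endoneurial cells (0.949), Cidec (1.30) and Plekhb1 (1.39). Pck1 (1.41), Mgst1 (1.43), Gpd1 (1.44) and Cldn19 (1.44) came next. Apod read 96.6, 9.71 and 294 in the day 7 replicates, against 14.4, 17.2 and 25.3 in the day 1 replicates. Cidec, Pck1 and Gpd1 are genes of fat cells, and each stayed above day 1 in day 7 replicate 2, where Mbp did not. Of the 8 genes themselves, Prx was nearest to Mbp (1.25) and Ngfr farthest (2.81).

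Nearest to Ngfr were Fancb (0.206), Cadm1 (0.218) and Mdk (0.248), the last encoding midkine, a growth factor of fetal tissues. Mdk read 322, 240 and 247 in the day 7 replicates, against 443, 605 and 391 in the day 1 replicates. None of the 3 was called (limma adjusted p from 0.0592 to 0.134). Nearest to S100b were Scrn1 (0.134), Pparg (0.205), the master regulator of fat cell formation, and Tent5a (0.206). Scrn1 and Tent5a were called higher (limma adjusted p = 0.0462 and 0.0301; both calls were kept only in the 2 fits without an array numbered 2, of 6 without 1 array), and Pparg had a log2 change of 1.33 (limma adjusted p = 0.0669).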

How the data were processed

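RNA from 6 tendon pools was labelled and hybridised to 1 array each. The authors deposited a linear intensity for each probe set on each array. Per the submitters' processing notes MAS5 and RMA were used, but the sources used here do not say which of them made the deposited intensity values. Tests ran on log2(value + 1) with no further normalization. The table held 31099 probe sets, among them 57 controls that were not tested, which left 31042. A platform annotation gave 20826 of these 1 gene symbol, 436 several and 9780 none. For 20758 the gene identifier matched a RefSeq table (GRCr8). Where several probe sets named a gene alone, the one highest on average stood for it, which gave 14217 genes, and the others served as a check.

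Ages were compared by limma 3.58.1 in R 4.3.3 (lmFit and eBayes, two-sided, Benjamini-Hochberg over all probe sets tested), with calls at an adjusted p under 0.05. A positive log2 change means higher on day 7, and SE is the moderated standard error. The code was checked on simulated intensities with known changes. The 8 genes, the gene lists and the rule for named genes were chosen with earlier results of these data known. By that rule the text names the 8 genes, up to 6 of the largest changes in each of 4 Schwann lists, the called and the 2 brightest genes of the other lists, and the genes nearest in profile to Mbp, Ngfr and S100b. Olig1, Olig2, Opalin, Mobp, Nkx2-2, Tyr and Tyrp1 were named beyond the rule, after their values were seen, as were Egr2, Erbb3, Krt71 and Ahsp. Adipocyte, cartilage, muscle and tendon genes that the rule selects are given only as sums and counts, except Cidec, Pck1 and Pparg, named for their profiles. Median intensities lay between 20.5 and 21.1 on the 6 arrays, and precision is limited by having 3 arrays at each age.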

Additional observations from a re-analysis of the deposited data

How the results depend on the processing

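Counts of calls, higher and lower on day 7, were 274 and 448 over all genes, 1 and 1 among the 8 myelin and Schwann genes, and 1 and 2 among 66 other Schwann, myelin and nerve genes (limma). Over the fits without 1 array they ran from 4 to 271 and from 0 to 382 over all genes, from 0 to 6 and from 0 to 1 among the 8, and from 0 to 7 and from 0 to 2 among the 66. The 0 over all genes came without day 7 replicate 1, with 1869 genes lower at an unadjusted p under 0.05, and the 6 and the 7 without day 7 replicate 2. Array weights gave 538 and 897 over all genes. A pseudocount of 16 gave 182 higher genes, 0 and 0 among the 8 (3 and 1 at an unadjusted p under 0.05) and 1 lower among the 66. Quantile normalization called 352 genes higher and 320 lower, and left 0 lower among the 8 (1 at an unadjusted p under 0.05). Among the 66, the brighter probe sets, averaged probe sets, array weights and a trended variance each gave 2 higher, and averaged probe sets 1 lower. The replicate numbers as a block gave 25 and 8 over all genes, 0 and 0 among the 8 (6 and 1 at an unadjusted p under 0.05), and 0 and 0 among the 66 (16 and 6). The numbers share no stated litter or batch, and the deviations of same-numbered arrays from their group means correlated at 0.05, -0.25 and -0.14, so they were not taken as pairs. Without both arrays numbered 2, an alternative chosen after seeing the data, 5 of the 8 and 6 of the 66 were higher and 0 of the 8 lower (1 at an unadjusted p under 0.05). Among the brighter probe sets, 11 genes that the rule for named genes selects gave no value, Mag, Ugt8, Gal3st1, Drp2 and Gjb1 among them. The rule selects 79 genes, not all named in the text, and 6 of them changed sign in some setting, each uncalled. Without 1 array, Sox10 ran from -0.0548 to 0.712, Tfap2a from -0.718 to 0.0344, Prph from -0.147 to 0.343, Tjp1 from -0.0736 to 0.0832, Mog from -0.285 to 0.0549 and Cyp51 from -0.172 to 0.114. Quantile normalization gave 0.0758 for Tjp1 and 0.0516 for Cyp51, and the fit without both arrays numbered 2 put the log2 change of Tjp1 at 0.05625. The cause of these shifts was not tested. Signal over background limits Mag, Ugt8, Erbb3, Gjb1, Cadm4 and most neuronal and oligodendrocyte genes, which lay near the negative control.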
